A study of Mus musculus with 12 samples.

Results

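The genes of the killing machinery of lymphocytes were followed through 4 groups of mouse T-lineage cells: the granzymes, their granule partners, the killer-cell lectin-like (Klr) receptors, NKp46, 3 secreted or surface effectors (Fasl, Ifng and Ccl5) and the T-box factors Eomes and Tbx21. The members were taken from the count table by their symbols alone: every Klra, Klrb, Klrc, Klrd, Klre, Klrg, Klri and Klrk gene that is not named as a pseudogene, every granzyme, and Prf1, Nkg7, Ncr1, Fasl, Ifng, Ccl5, Cst7, Eomes and Tbx21. They came to 45 of 54351 rows. Of these 45 members, 39 had enough counts to be tested, among 20897 genes tested. The other 6 are Gzmc, Gzmd, Gzme, Gzmf, Gzmg and Gzmn, of which 4 had no count in any library.

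Cytotoxic T cells and natural killer (NK) cells kill by releasing granules in which perforin opens a way into the target cell for granzymes, proteases that start its death. Killer receptors tell these cells whether to fire: most Ly49 receptors (the Klra genes of the mouse) and CD94 with NKG2A read MHC class I and hold the cell back, while NKG2D, NKp46 and a few Ly49 receptors activate it. Immature thymocytes carry little of this machinery, and T-bet and Eomesodermin, the products of Tbx21 and Eomes, switch on much of it as T and NK cells mature.

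The RNA came from 4 groups of 3 libraries each. LN3 thymus and LN3 spleen held leukaemic cells (T-ALL, acute lymphoblastic leukaemia of the T lineage) from those organs of overtly sick LN3 transgenic mice on the C57BL/6 background; the labels do not spell out the transgene or the promoter that drives it. WT thymocytes were total thymus cells, and WT CD8 cells were spleen T cells, both from C57BL/6J mice without a tumour. Only the WT CD8 cells were enriched, by removing other cells, to a stated CD8 T-cell purity of 85 to 95%, so the spleen comparison sets unsorted leukaemic spleen cells against enriched T cells. Whether samples within a group stem from different animals is not stated in the labels, and p-values therefore measure only the spread between these samples.

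Library totals ran from 12694571 to 42483898 estimated counts, and 3 counts, the limit that a count of 0 allows, corresponded to 0.0657 to 0.262 CPM (CPM, each count divided by its library's scaled total and put on 1 scale). Xist, an RNA made by female cells, stood at 2.14, 3.89 and 3982 CPM in LN3 thymus and 1.31, 4025 and 2317 in LN3 spleen. It stood at 2.97, 2586 and 1.03 in WT thymocytes and 1.04, 1420 and 1615 in WT CD8 cells. By this marker each group held libraries of both sexes, and so more than 1 animal. Sex was not in the fit. Cd8a and Cd8b1, which encode the CD8 co-receptor, fell in LN3 thymus against WT thymocytes (log2 difference −2.64 and −2.8, adjusted p = 0.00181 and 0.000476). They also fell in LN3 spleen against WT CD8 cells (−2.2 and −2.57, adjusted p = 0.00192 and 0.000291), while Cd3e was 303 CPM or more on average in every group. In bulk RNA, fewer cells of a type and less RNA per cell cannot be told apart. The 10 NK-cell markers outside the members summed to 11.7 to 38.9 CPM in LN3 thymus, 27.2 to 97.9 in LN3 spleen, 18.9 to 31.8 in WT thymocytes and 67.1 to 383 in WT CD8 cells, and none of them was at 0 in all libraries of a group. The 8 myeloid markers summed to 50.1 to 314, 261 to 1370, 80.8 to 210 and 196 to 2850 CPM in the same order. Adjusted p-values throughout are from edgeR's quasi-likelihood test with Benjamini-Hochberg adjustment over all genes tested, and a gene is said to rise, fall or be called where that value is below 0.05. Log2 differences are given with their standard error (SE), and group means with their SD (n = 3). Shares of all genes called are from edgeR's test at that adjusted threshold. None were counted at an unadjusted p or by the alternatives DESeq2 and limma, so member counts at those settings have no background share.

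In the thymus, 1 of the 39 tested members rose in LN3 cells (2.56%) and 6 fell (15.4%), beside 6.06% of all genes tested that rose and 5.21% that fell. Gzma was the member that rose. Klra1, Klra5, Klra9, Klrb1c, Klrk1 and Nkg7 fell. The count that fell was 2 without LN3 thymus library 1 and 1 without LN3 thymus library 3 or WT thymocyte library 1, and DESeq2 called 12 lower. The median log2 difference of the tested members was −1.54 (−1.39 with a member without LN3 counts at its bound and 2 near 0 in both groups left out), against −0.04 over all genes. The CPM of the groups did not overlap for 2 members higher in LN3 thymus (Gzma and Gzmm) and 12 lower, where 14.4% and 12.8% of all genes tested did not overlap in those directions. In the spleen, none rose and 32 of 39 fell (82.1%), beside 17.9% of all genes that rose and 13% that fell. The median there was −4.28 (−4.04 with Klra10 at its bound), against −0.11 over all genes. At an unadjusted p below 0.05, 0 members were higher and 34 lower in the spleen, and DESeq2 and limma also called 0 members higher. Without WT CD8 libraries 1 and 2, those with the most NK-cell and myeloid marker RNA, 1 member was called higher (Gzma) and 15 lower; that fit has 1 WT CD8 library, assumed to vary like the other groups. The groups did not overlap for 34 members, each lower in LN3 spleen, where 30.8% of all genes were lower without overlap. The 7 members not called in the spleen were Gzma, Gzmk, Ifng, Klra17, Klrb1, Klrg1 and Klrg2.

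**Figure D1:**
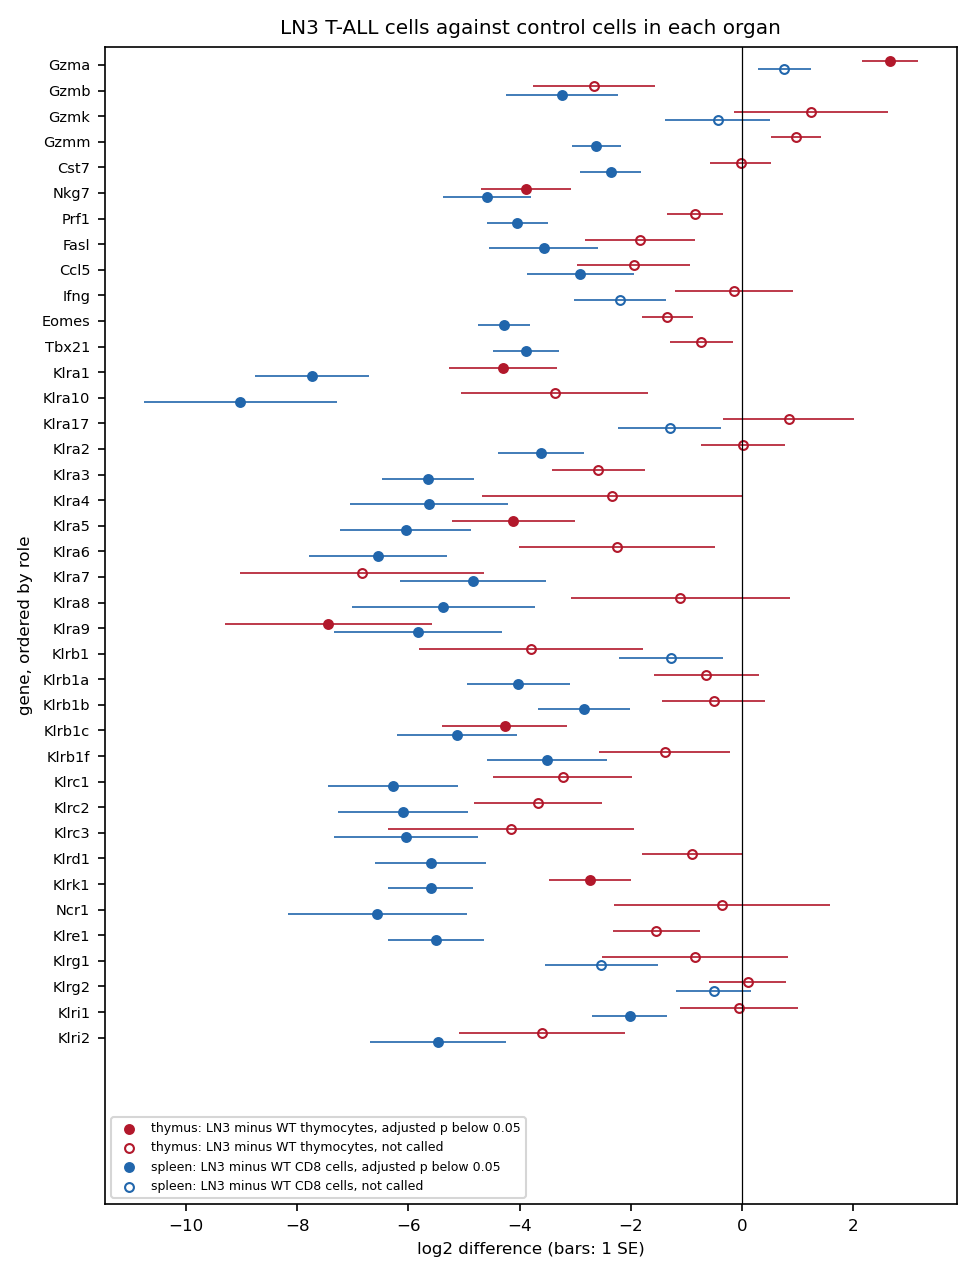
Log2 difference of each tested member between LN3 cells and the control cells of the same organ, with bars of 1 SE, for the thymus and for the spleen, where filled points passed an adjusted p of 0.05. Gzma lies at 2.66 in the thymus, alone among called members on the right of zero, and 32 members lie on the left and were called in the spleen. The plotted sizes for Klra7, Klrb1 and Klrc3 in the thymus and Klra10 in the spleen, which had no count in LN3 cells, depend on the fit's prior count.

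The filter on low counts asked for 0.547 CPM in 3 libraries. Of the 39 tested members, 20 reached this outside the WT CD8 group, and the other 19, among them 9 of the Klra genes, Ncr1 and Klri2, passed only with WT CD8 libraries and so were bound to be high there. The counts and medians of members in the spleen and between the control groups therefore describe the members and are no independent evidence of their direction. The same holds for the later comparison of the genotype effect between the organs, which also uses the WT CD8 libraries.

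Granzyme A (Gzma, chr13:113093825-113100981, minus strand of GRCm38, protein-coding) was the most abundant granzyme transcript in every library. Its levels were 121, 255 and 182 CPM in the LN3 thymus libraries and 144, 130 and 110 in those of LN3 spleen. They were 24.1, 22.9 and 41.1 in WT thymocytes and 143, 55.1 and 28.5 in WT CD8 cells. The LN3 thymus libraries lay above all WT thymocyte libraries, whereas the LN3 spleen libraries overlapped the wide range of the WT CD8 cells. Group means were 186 ± 67.1, 128 ± 16.7, 29.4 ± 10.2 and 75.6 ± 60 CPM. Gzma rose 6.34-fold in LN3 thymus (log2 difference 2.66, SE 0.51, adjusted p = 0.0054). In the spleen its difference was 0.76 (SE 0.48, adjusted p = 0.234), and the difference between the organs did not pass either (−1.90, SE 0.68, adjusted p = 0.158). WT CD8 library 1 held most Gzma of its group and also the most NK-cell marker RNA. Without that library the spleen difference was 1.64 and passed (adjusted p = 0.02).

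Some libraries carried a large share of their counts in 4 rows (CT010467.1, Mir6236, Lars2 and Gm26917), from 0.868% to 15.4%. Among the 3 libraries with low shares in the thymus (LN3 thymus 1 and WT thymocytes 1 and 2) Gzma was 5.15-fold higher in LN3 cells, at 121 against a mean of 23.5 CPM. Among the other thymus libraries it was 5.32-fold higher, at 219 against 41.1. All LN3 spleen libraries and no WT CD8 library were of the high-share kind, so in the spleen that share and the genotype cannot be told apart. Leaving out the 3 libraries whose counts rose most steeply with transcript GC content (LN3 thymus 2, LN3 spleen 1 and WT thymocytes 3) gave a Gzma difference of 2.72 in the thymus with an adjusted p of 0.0524.

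The promoters of Gzma and of Gzmb, Nkg7 and Prf1 are printed here to set the granule gene that rose beside granule genes that did not; they are the minus strand of chr13:113100932-113101231 for Gzma and of chr14:56262285-56262584 for Gzmb, and the plus strand of chr7:43436888-43437187 for Nkg7 and of chr10:61297586-61297885 for Prf1. Each runs 5′ to 3′ from 250 bases before the start of transcription to 50 after it, from RefSeq on GRCm38.p6, with matches to 3 motifs in capitals: TGTGGT (RUNX), TCACACC (T-box) and TTCNNNGAA (STAT5), each searched on both strands.
Gzma promoter: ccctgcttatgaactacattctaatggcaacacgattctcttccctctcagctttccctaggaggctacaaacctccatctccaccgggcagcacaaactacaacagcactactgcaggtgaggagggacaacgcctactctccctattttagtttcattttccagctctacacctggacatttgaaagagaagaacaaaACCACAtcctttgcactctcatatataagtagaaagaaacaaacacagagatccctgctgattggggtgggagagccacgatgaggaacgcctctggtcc
Gzmb promoter: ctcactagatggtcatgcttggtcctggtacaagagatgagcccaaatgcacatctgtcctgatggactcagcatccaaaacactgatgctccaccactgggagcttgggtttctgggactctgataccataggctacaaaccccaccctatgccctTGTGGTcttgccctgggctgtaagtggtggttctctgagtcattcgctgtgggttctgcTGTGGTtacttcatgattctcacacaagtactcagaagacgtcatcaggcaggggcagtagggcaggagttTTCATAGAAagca
Nkg7 promoter: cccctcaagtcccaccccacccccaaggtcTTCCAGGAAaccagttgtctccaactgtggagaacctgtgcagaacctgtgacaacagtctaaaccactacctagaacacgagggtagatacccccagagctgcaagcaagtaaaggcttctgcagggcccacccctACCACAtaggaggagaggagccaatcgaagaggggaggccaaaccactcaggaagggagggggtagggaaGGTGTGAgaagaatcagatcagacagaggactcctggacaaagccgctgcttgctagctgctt
Prf1 promoter: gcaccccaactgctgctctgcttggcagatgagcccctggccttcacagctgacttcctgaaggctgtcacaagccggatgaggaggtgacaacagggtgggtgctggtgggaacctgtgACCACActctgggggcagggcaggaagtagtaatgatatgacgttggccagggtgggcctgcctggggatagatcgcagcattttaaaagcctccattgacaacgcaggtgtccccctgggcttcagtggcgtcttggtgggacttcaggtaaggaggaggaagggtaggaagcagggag

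RefSeq promoters were matched for 41 of the 45 members (not for Ccl5, Klrd1, Klrg1 and Klri2). TGTGGT or its complement stood in a promoter of 20 of the 41 (48.8%), against 18.9% of 27025 genes with a promoter in the table. The 20 include gene copies with closely alike promoters: Gzmc to Gzmg, Klrc2 with Klrc3, and Klrb1a with Klrb1c. They are thus not independent matches, and the shares were not tested. TCACACC was found in 4 members (9.76% against 4.6%): Gzmk, Gzmm, Klra1 and Nkg7. TTCNNNGAA was found in 8 members (19.5% against 9.55%). Matches to different motifs overlapped in 0 of the 41 members. Gzma held 1 RUNX match, as Prf1 did, Gzmb held 2 with 1 STAT5 match, and Nkg7 held 1 match to each of the 3 motifs.

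Granzyme B (Gzmb, chr14:56258838-56262260, minus strand) stood at 0.084, 0.91 and 0.0845 CPM in LN3 thymus, 3.4, 3.16 and 0.0569 in LN3 spleen, 2.36, 1.59 and 1.81 in WT thymocytes, and 25.9, 26 and 10.8 in WT CD8 cells. It is the granzyme that cleaves caspases in the target cell. Every LN3 library lay below every WT CD8 library, and Gzmb fell in the spleen (−3.24, SE 1.01, adjusted p = 0.028). That call ended without WT CD8 library 1 (adjusted p = 0.0748), without WT CD8 library 2 (0.0673) and without LN3 spleen library 2 (0.0508). In the thymus the difference was −2.66 (SE 1.1, adjusted p = 0.152). Granzyme M (Gzmm) lay at 1.43, 1.41 and 1.18 CPM in LN3 thymus and at 0.676, 0.675 and 0.688 in WT thymocytes, without overlap, but its difference of 0.97 (SE 0.45) did not pass (adjusted p = 0.202). In the spleen Gzmm fell (−2.62, SE 0.44, adjusted p = 0.00104), with 2.09, 1.25 and 0.854 CPM in its LN3 libraries and 9.51, 5.92 and 10.1 in WT CD8 cells. Granzyme K (Gzmk), whose gene lies 70626 bases from Gzma, averaged 0.201, 3.05, 0.09 and 4.21 CPM in LN3 thymus, LN3 spleen, WT thymocytes and WT CD8 cells. Its LN3 spleen libraries ranged from 0.228 to 7.44 CPM, and the spleen difference was −0.44 (adjusted p = 0.74).

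Per kilobase of transcript, Gzma reached 185 CPM in LN3 thymus, 127 in LN3 spleen, 29.2 in WT thymocytes and 75.1 in WT CD8 cells, whereas Gzmb reached 0.25, 1.53, 1.34 and 14.6. Of all granzyme counts, Gzma took 98.7%, 98.9% and 99.1% in the LN3 thymus libraries, and 95.4%, 91.6% and 99% in LN3 spleen. The shares were 87.9%, 89.4% and 93.2% in WT thymocytes and 78.4%, 59.2% and 54.3% in WT CD8 cells. The exact 95% intervals (Clopper-Pearson) reached from 98.3% to 99.1% in LN3 thymus 1 and from 52.3% to 56.3% in WT CD8 library 3; they cover counting error only. Every LN3 library but LN3 spleen 2 lay above every WT library in this share. The granzyme genes of the chromosome 14 cluster other than Gzmb were at or near 0 everywhere: Gzmd, Gzmf, Gzmg and Gzmn had no count, Gzme had 1 count in all, and Gzmc averaged 0.295 CPM or less in each group.

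**Figure D2:**
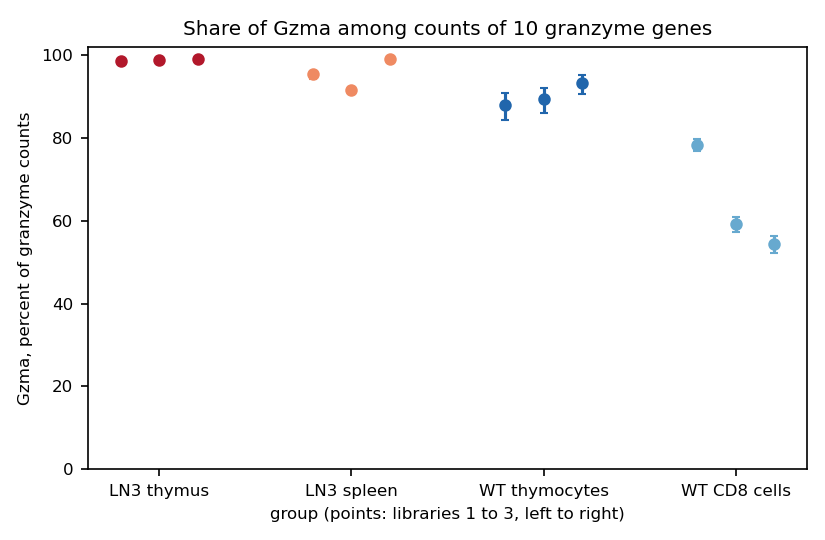
Share of all granzyme counts taken by Gzma in each of the 12 libraries, in percent, with exact 95% intervals for counting error. The LN3 thymus libraries sit between 98.7% and 99.1%, and the WT CD8 libraries between 54.3% and 78.4%.

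Perforin (Prf1), the pore-forming protein through which granzymes enter, did not follow Gzma. It stood at 1.76, 5.54 and 5.24 CPM in LN3 thymus, 8.02, 5.18 and 2.9 in LN3 spleen, 5.74, 5.03 and 11.8 in WT thymocytes, and 123, 62.5 and 78.0 in WT CD8 cells. The thymus groups overlapped (−0.85, adjusted p = 0.33), and in the spleen Prf1 fell 16.4-fold (−4.04, SE 0.55, adjusted p = 0.000254). Per Gzma count there were 0.0146 to 0.0287 Prf1 counts in LN3 thymus, 0.0263 to 0.0558 in LN3 spleen, 0.22 to 0.287 in WT thymocytes and 0.859 to 2.74 in WT CD8 cells. These ratios did not overlap between LN3 and WT libraries in either organ; they were not tested.

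Nkg7, a granule membrane protein of killer cells needed for full granule release, stood at 0.84, 2.15 and 0.422 CPM in LN3 thymus, 15, 6.83 and 0.968 in LN3 spleen, 13.0, 10.4 and 23.2 in WT thymocytes, and 202, 151 and 186 in WT CD8 cells. It fell in both organs, 13.7-fold in the thymus (−3.89, SE 0.81, adjusted p = 0.00864) and in the spleen with a log2 difference of −4.58 (SE 0.79, adjusted p = 0.00118). The thymus call held under all alternatives tried, and Nkg7 was 13.9-fold lower among the libraries with low shares of the 4 dominant rows and 18.1-fold lower among the others. Cst7, which encodes cystatin F, an inhibitor of the proteases that activate granzymes, lay at 0.924, 4.96 and 2.25 CPM in LN3 thymus, 10.6, 5.04 and 5.81 in LN3 spleen, 1.76, 2.27 and 4.13 in WT thymocytes, and 40.4, 28 and 41.4 in WT CD8 cells. Its thymus groups overlapped with a difference of −0.02 (adjusted p = 0.984). In the spleen it fell (−2.36, SE 0.55, adjusted p = 0.00656).

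**Figure D3:**
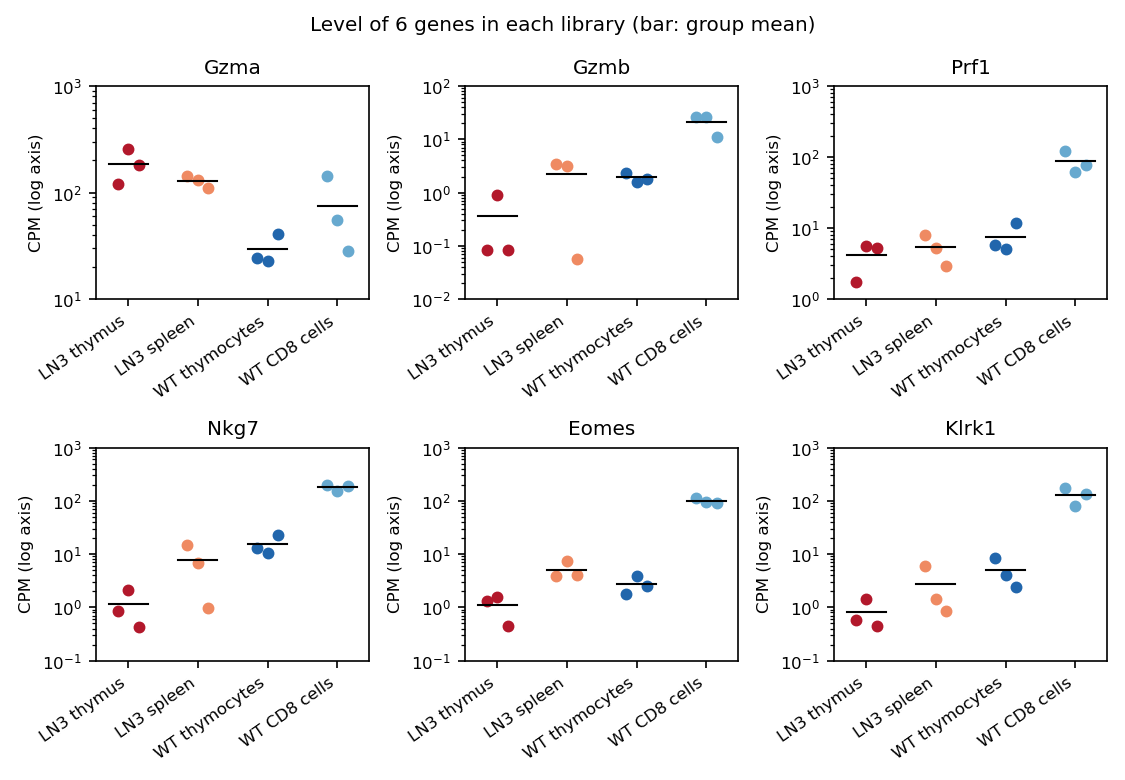
CPM per library, on a log axis, of 6 members in the 4 groups, with each library as a point and the group mean as a bar. Gzma is higher in all LN3 thymus libraries (121 to 255) than in WT thymocytes (22.9 to 41.1), while Nkg7 is lower.

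Among the secreted and surface effectors, the chemokine Ccl5 varied widely between libraries of 1 group. It stood at 0.462, 3.23 and 1.04 CPM in LN3 thymus, 17.2, 43.8 and 1.08 in LN3 spleen, 7.16, 2.09 and 7.91 in WT thymocytes, and 236, 85.0 and 147 in WT CD8 cells. The LN3 spleen libraries differed from each other more than 10-fold. Ccl5 fell in the spleen (−2.91, SE 0.96, adjusted p = 0.0371), a call that ended in 12 of 23 alternatives, with adjusted p up to 0.214. The libraries whose omission ended it were LN3 spleen 1 and 3, WT thymocytes 1 and 3 and WT CD8 1 and 3. Fasl, the ligand that kills through the death receptor Fas, averaged 0.393, 0.58, 1.31 and 7.24 CPM in LN3 thymus, LN3 spleen, WT thymocytes and WT CD8 cells, and it fell in the spleen (−3.56, adjusted p = 0.0159). It was 13.9 CPM in WT CD8 library 1 against 3.92 and 3.87 in the others, and without that library its adjusted p was 0.0716. Interferon gamma (Ifng) averaged 1.94 CPM in WT CD8 cells and 0.386 or less in the other groups, and its spleen difference of −2.19 did not pass (adjusted p = 0.0613).

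Both T-box factors were lower in LN3 spleen than in WT CD8 cells. Eomes stood at 1.34, 1.57 and 0.451 CPM in LN3 thymus, 3.84, 7.33 and 3.99 in LN3 spleen, 1.76, 3.93 and 2.49 in WT thymocytes, and 111, 95.6 and 91.0 in WT CD8 cells. It fell in the spleen (−4.28, SE 0.47, adjusted p = 6.5e-05), and in the thymus its difference was −1.34 (SE 0.46, adjusted p = 0.0817), which DESeq2 called (adjusted p = 0.0316). Tbx21 stood at 1.47, 3.14 and 0.845 CPM in LN3 thymus, 4.8, 2.58 and 1.37 in LN3 spleen, 3.58, 1.96 and 3.27 in WT thymocytes, and 63.3, 28.9 and 35.3 in WT CD8 cells. It fell in the spleen (−3.88, SE 0.59, adjusted p = 0.000553) and not by this test in the thymus (−0.73, adjusted p = 0.468).

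The killer receptors, 26 Klr genes and Ncr1, summed to 5, 7.78 and 6.76 CPM in LN3 thymus, 38.7, 10.2 and 6.44 in LN3 spleen, 48.7, 22.8 and 12.1 in WT thymocytes, and 983, 372 and 457 in WT CD8 cells. All 3 LN3 thymus sums lay below every WT thymocyte sum, and LN3 spleen library 1 held several times the sum of the other LN3 spleen libraries. Of the 26 Klr genes, all on chromosome 6, 24 lie within chr6:128609227-131247362, the NK gene complex, a stretch of 2638136 bases. WT CD8 library 1 was the highest of its group for 22 of 26 Klr genes with a count there, LN3 spleen library 1 for 22 of 25, and WT thymocyte library 1 for 21 of 26. Most receptors of a group thus had the same highest library. In WT CD8 library 1 the NK-cell markers Itga2 and Adamts14, singled out after their values were seen, were at 45.8 and 79.8 CPM. They were at 14.1 and 11.5 and at 14.2 and 12.7 in the other WT CD8 libraries. Other markers of that list differed. Fcgr3 was highest in WT CD8 library 2, at 28.8, 49.3 and 5.04 CPM in library order. Tyrobp (88.4, 74.5 and 10.4) and Fcer1g (54.5, 52.5 and 9) were high in libraries 1 and 2. WT CD8 library 2 had an NK-cell marker sum of 307 CPM against 67.1 in library 3, and the lower receptor sum (372 against 457). Its Itga2 and Adamts14 lay near those of library 3. Tyrobp, Fcer1g and Fcgr3, at 74.5, 52.5 and 49.3 CPM, were a large part of the NK-cell sum of library 2. That library also had the larger myeloid marker sum, at 2850 CPM against 196 in library 3. How much of its NK-cell sum came from myeloid cells was not tested. The part of NK cells in the receptor values was not tested.

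**Figure D4:**
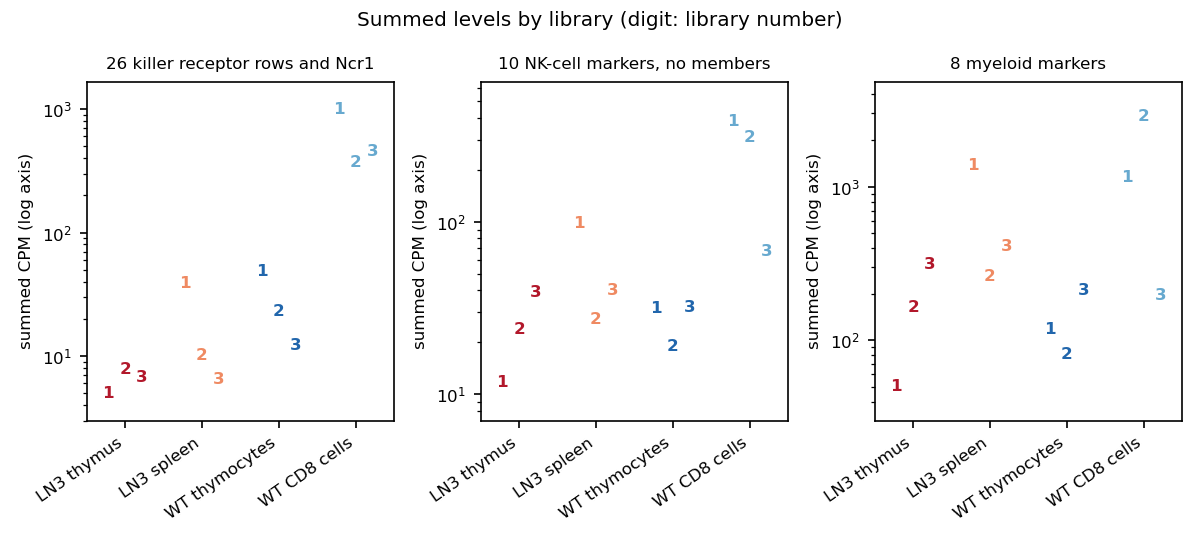
Summed CPM per library, on log axes, of the killer receptors, of the 10 NK-cell markers that are no members and of the 8 myeloid markers, in 3 panels by group, where each digit is a library and gives its number. WT CD8 library 1 is highest for killer receptors (983 CPM) and NK-cell markers (383 CPM), and WT CD8 library 2 for myeloid markers (2850 CPM).

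Some of the Ly49 receptors are encoded by closely alike gene copies and others are more distinct. The first 60 coding bases of the 11 Klra genes are printed to show how alike they are. They are the start of the longest coding transcript of each gene in GENCODE vM21 on GRCm38, from the start codon, 5′ to 3′, with capitals where a base differs from Klra3.
Klra3: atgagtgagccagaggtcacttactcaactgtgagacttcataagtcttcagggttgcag
Klra5: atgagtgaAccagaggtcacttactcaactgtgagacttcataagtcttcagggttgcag
Klra6: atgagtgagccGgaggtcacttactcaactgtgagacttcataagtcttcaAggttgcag
Klra9: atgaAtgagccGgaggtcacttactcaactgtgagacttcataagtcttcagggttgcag
Klra10: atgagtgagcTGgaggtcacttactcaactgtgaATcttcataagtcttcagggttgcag
Klra2: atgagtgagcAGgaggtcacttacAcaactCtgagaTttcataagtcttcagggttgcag
Klra7: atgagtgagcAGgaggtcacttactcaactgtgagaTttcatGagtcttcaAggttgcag
Klra17: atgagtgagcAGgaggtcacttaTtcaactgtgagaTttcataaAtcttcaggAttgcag
Klra1: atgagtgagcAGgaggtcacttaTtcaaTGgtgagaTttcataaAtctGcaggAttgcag
Klra4: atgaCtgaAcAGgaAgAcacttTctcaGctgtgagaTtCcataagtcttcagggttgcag
Klra8: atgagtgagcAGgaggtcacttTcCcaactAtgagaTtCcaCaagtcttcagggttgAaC

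Klra5 differs from Klra3 at 1 of these bases, Klra6 and Klra9 at 2, and Klra4 and Klra8 at 10. The products of Klra4 and Klra8 (Ly49D and Ly49H) are activating receptors that signal through the adaptor DAP12, while most of the others are inhibitory. Over whole transcripts, 65.1% of the 31-base words of Klra10 also occur in another gene, as do 57.8% of those of Klra9, 55% of Klra8, 43.5% of Klra3 and 24.7% of Klra7. For Klra1 the share is 7.63%, for Klra2 1.58% and for Klra17 0.337%. The deposited counts of the copies with high shares were divided by estimation, so that single values are less certain than the family sum. Pseudogene rows of the same family held 34.2%, 30.3% and 55.7% of all Klra counts in the WT CD8 libraries, and Klra13-ps alone held 1448, 984 and 2716 counts.

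Summed over its 11 member rows, the Klra family stood at 0.714, 1.57 and 1.8 CPM in LN3 thymus, 8.28, 2.03 and 1.94 in LN3 spleen, 14.9, 4.97 and 2.67 in WT thymocytes, and 186, 80.3 and 49.5 in WT CD8 cells. The groups did not overlap in either organ. The sum fell in the spleen (−4.72, SE 0.81, adjusted p = 0.00115) and did not pass in the thymus (−2.46, adjusted p = 0.0567). With library totals in place of TMM scaling the thymus sum passed (−2.76, adjusted p = 0.039). Of the 11 tested Ly49 genes taken singly, 3 fell in the thymus (median −2.58, or −2.34 with Klra7 at its bound) and 10 fell in the spleen (median −5.64, or −5.62 with Klra10 at its bound). Of all genes tested, 5.21% fell in the thymus and 13% in the spleen. Most of these Ly49 genes passed the low-count filter only with WT CD8 libraries, so their spleen count is no independent evidence of direction.

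The Ly49 genes that fell in the thymus rested on few counts. Klra9 had 1 count in the 3 LN3 thymus libraries against 160 in WT thymocytes, a ratio of 267 with a 95% counting interval of 47.3 to 10600, and its adjusted p was 0.022. Its WT thymocyte libraries ranged from 8.31 to 0.516 CPM (8.31, 1.9 and 0.516). Klra1 had 2 counts against 30, a ratio of 25.1 (interval 6.36 to 216, adjusted p = 0.0133), and Klra5 had 2 against 28, a ratio of 23.4 (interval 5.9 to 203, adjusted p = 0.031). Leaving out single thymus libraries ended each of these calls: LN3 thymus 1, 2 or 3 or WT thymocytes 1 for Klra9 (adjusted p 0.0547 to 0.0872), LN3 thymus 3 or WT thymocytes 1 for Klra1 (0.0567 and 0.0558), and LN3 thymus 1 or 3 or WT thymocytes 1 or 2 for Klra5 (0.055 to 0.125). Klra7 had no count in LN3 thymus and 27 in WT thymocytes, at least 3.99-fold lower at the floor of 3 counts per library, and did not pass (adjusted p = 0.0727).

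In the spleen, the activating pair stood at 45.3, 5.76 and 5.32 CPM (Klra4) and at 54.1, 4.33 and 4.44 CPM (Klra8) in WT CD8 cells. In LN3 spleen Klra4 was at 1.31, 0.029 and 0 CPM and Klra8 at 1.74, 0 and 0. In LN3 thymus Klra4 was at 0.042, 0 and 0 and Klra8 at 0, 0.248 and 0.0845 CPM, and in WT thymocytes at 0.203, 0 and 0.086 and at 0.27, 0.307 and 0 CPM. The first library of each spleen group was the highest for both genes. Both fell in the spleen (−5.62 and −5.37, adjusted p = 0.0103 and 0.026). Without WT CD8 library 1 the differences were −3.81 for Klra4 and −3.06 for Klra8 (adjusted p = 0.0552 and 0.154), and Klra8 also lost its call without LN3 spleen 2 (0.0579) or 3 (0.0837). Klra7, an inhibitory receptor (Ly49G), showed the same order, with 1.48, 0.0579 and 0.114 CPM in LN3 spleen, 1.62, 0.123 and 0.086 in WT thymocytes and 24.4, 6.8 and 11 in WT CD8 cells, and fell in the spleen (−4.84, adjusted p = 0.0178). That call ended without WT CD8 library 1 (adjusted p = 0.0568) or LN3 spleen library 3 (0.0742).

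Klra9 stood at 22, 3.95 and 5.08 CPM in WT CD8 cells, at 0, 0.0827 and 0 in LN3 thymus and at 0.698, 0 and 0 in LN3 spleen, and fell in the spleen (−5.83, adjusted p = 0.012; 0.0531 without LN3 spleen library 3). Klra2 was at 0.588, 0.744 and 1.1 CPM in LN3 thymus, 1.74, 1.62 and 1.48 in LN3 spleen, 0.811, 0.92 and 0.688 in WT thymocytes, and 9.94, 45.8 and 3.33 in WT CD8 cells. Its highest library, as that of Klra17, was WT CD8 library 2, which also held the most myeloid marker RNA, at 2850 CPM summed; the part of myeloid cells in Klra2 was not tested. Klra2 fell in the spleen (−3.61, SE 0.77, adjusted p = 0.00404). With WT CD8 libraries 1 and 2 left out, which leaves 1 control library of 3.33 CPM that is assumed to vary like the other groups, its difference was −1.03 (adjusted p = 0.341). Klra10 had no count in LN3 spleen against 260 in WT CD8 cells, at least 16.4-fold lower, and Klra1, Klra6 and Klra5 had 1, 3 and 1 counts against 408, 581 and 127. Klra3 ranged from 2.66 to 9.78 CPM in the WT CD8 libraries and fell in the spleen (−5.64, adjusted p = 0.000457). Klra17 was at 1.58 CPM or less in every library and was called in no comparison.

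The NKR-P1 receptors, some of which read Clec2 proteins rather than MHC, were led by Klrb1c, the NK1.1 antigen of C57BL/6 mice. Klrb1c stood at 0.084, 0.579 and 0.169 CPM in LN3 thymus, 3.75, 0.434 and 0.171 in LN3 spleen, 6.62, 3.31 and 4.04 in WT thymocytes, and 103, 20.7 and 19.0 in WT CD8 cells. It fell 16.8-fold in the thymus (−4.27, SE 1.13, adjusted p = 0.029) and fell in the spleen (−5.13, adjusted p = 0.00375). The thymus call ended without LN3 thymus 1 or 3 or WT thymocytes 1 or 3 (adjusted p 0.0553 to 0.104). Of the 5 tested Klrb1 genes, Klrb1c alone fell in the thymus and 4 fell in the spleen, the exception there being Klrb1 (−1.28, adjusted p = 0.305). The shares over all genes tested were 5.21% in the thymus and 13% in the spleen. Klrb1, Klrb1a and Klrb1b passed the low-count filter only with WT CD8 libraries, so the spleen count is no independent evidence of direction. Summed over the family, the difference was −4.18 in the spleen (67.8 CPM in WT CD8 cells against 3.82 in LN3 spleen, adjusted p = 0.00267) and −2.64 in the thymus (6.01 against 0.997, adjusted p = 0.0545). Klrb1a, Klrb1b and Klrb1f ranged from 0.963 to 6.56, from 2.65 to 14.8 and from 3.87 to 19.6 CPM in WT CD8 cells. Of these, Klrb1b lost its spleen call without WT CD8 library 1 or LN3 spleen 2 or 3 (adjusted p 0.0579 to 0.138), and Klrb1f without WT CD8 library 1 or LN3 spleen 1 or 3 (0.0596 to 0.13).

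CD94 (Klrd1) pairs with an NKG2 chain, inhibitory NKG2A (Klrc1) or activating NKG2C (Klrc2), to read the non-classical MHC molecule Qa-1. Klrd1 stood at 0.252, 1.16 and 2.39 CPM in LN3 thymus, 6.02, 2.06 and 0.114 in LN3 spleen, 3.58, 2.64 and 0.946 in WT thymocytes, and 126, 100 and 158 in WT CD8 cells. Unlike most receptors it was highest in WT CD8 library 3. It fell in the spleen (−5.6, SE 1.0, adjusted p = 0.00151) and not by this test in the thymus (−0.89, adjusted p = 0.607). No 31-base word of Klrd1 occurs in another gene.

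Klrc1 lay at 0.042, 0.331 and 0.0282 CPM in LN3 thymus, 1.31, 0.116 and 0.0569 in LN3 spleen, 1.82, 0.92 and 0.086 in WT thymocytes, and 52.2, 20.7 and 26.6 in WT CD8 cells. Klrc2 lay at 0.126, 0.331 and 0.225, at 1.48, 0.145 and 0.456, at 5.68, 2.58 and 0.086, and at 84.1, 15.8 and 29.0 CPM in the same order of groups. Both fell in the spleen (−6.27 and −6.09, adjusted p = 0.00191 and 0.00231). In the thymus their differences were −3.22 (adjusted p = 0.126) and −3.67 (adjusted p = 0.0583), with WT thymocyte library 3 lower than the other WT thymocyte libraries for both genes. Klrc3, of which 53.4% of the 31-base words are shared as are 53.1% of those of Klrc1 and 21.6% of those of Klrc2, had no count in LN3 thymus and 8.47, 1.52 and 2.28 CPM in WT CD8 cells. The sum of the Klrc genes fell in the spleen from 80.3 to 1.28 CPM (−6.1, adjusted p = 0.0022), and the thymus difference was −3.56 (3.81 against 0.361 CPM, adjusted p = 0.0658).

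NKG2D (Klrk1) is an activating receptor for stress-induced ligands and is also carried by mature CD8 T cells. It stood at 0.588, 1.41 and 0.451 CPM in LN3 thymus, 6.02, 1.45 and 0.854 in LN3 spleen, 8.58, 4.05 and 2.41 in WT thymocytes, and 176, 78.8 and 134 in WT CD8 cells. The groups of each organ did not overlap, and Klrk1 fell 6.15-fold in the thymus (−2.73, SE 0.74, adjusted p = 0.031) and fell in the spleen (−5.6, SE 0.77, adjusted p = 0.000285). The thymus call ended in 9 of 23 alternatives, among them the omission of LN3 thymus 1 or 3 or WT thymocytes 1 or 2 (adjusted p 0.0541 to 0.139). NKp46 (Ncr1), an activating receptor largely restricted to NK cells and other innate lymphocytes, stood at 0.042, 0.496 and 0 CPM in LN3 thymus, 1.48, 0 and 0 in LN3 spleen, 0.0676, 0.307 and 0.086 in WT thymocytes, and 91.4, 15.7 and 8.12 in WT CD8 cells. It was high in the first WT CD8 library and at or near the floor in all thymus libraries. Ncr1 fell in the spleen (−6.56, SE 1.61, adjusted p = 0.00903), and that call ended without WT CD8 library 1 (−4.75, adjusted p = 0.0535).

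Klre1 and Klri2 encode receptor chains of NK cells that act together as a heterodimer. Klre1 stood at 0.63, 0.579 and 0.366 CPM in LN3 thymus, 1.05, 0.261 and 0.342 in LN3 spleen, 2.84, 1.23 and 0.43 in WT thymocytes, and 47.2, 10.1 and 13.2 in WT CD8 cells. Klri2 stood at 0, 0.0827 and 0.0563, at 0.872, 0.434 and 0.342, at 1.55, 0.123 and 0, and at 55.3, 9.78 and 5.47 CPM in the same order. Both fell in the spleen (−5.5 and −5.46, adjusted p = 0.000734 and 0.00538), and in the thymus their groups overlapped. Klrg1, a marker of terminally differentiated killer cells, averaged 0.0827, 0.958, 0.0982 and 5.32 CPM in LN3 thymus, LN3 spleen, WT thymocytes and WT CD8 cells, with a spleen difference of −2.53 (adjusted p = 0.0765). Klrg2, whose function is little known, averaged 0.799, 0.778, 0.767 and 1.1 CPM in that order and was called in no comparison.

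**Figure D5:**
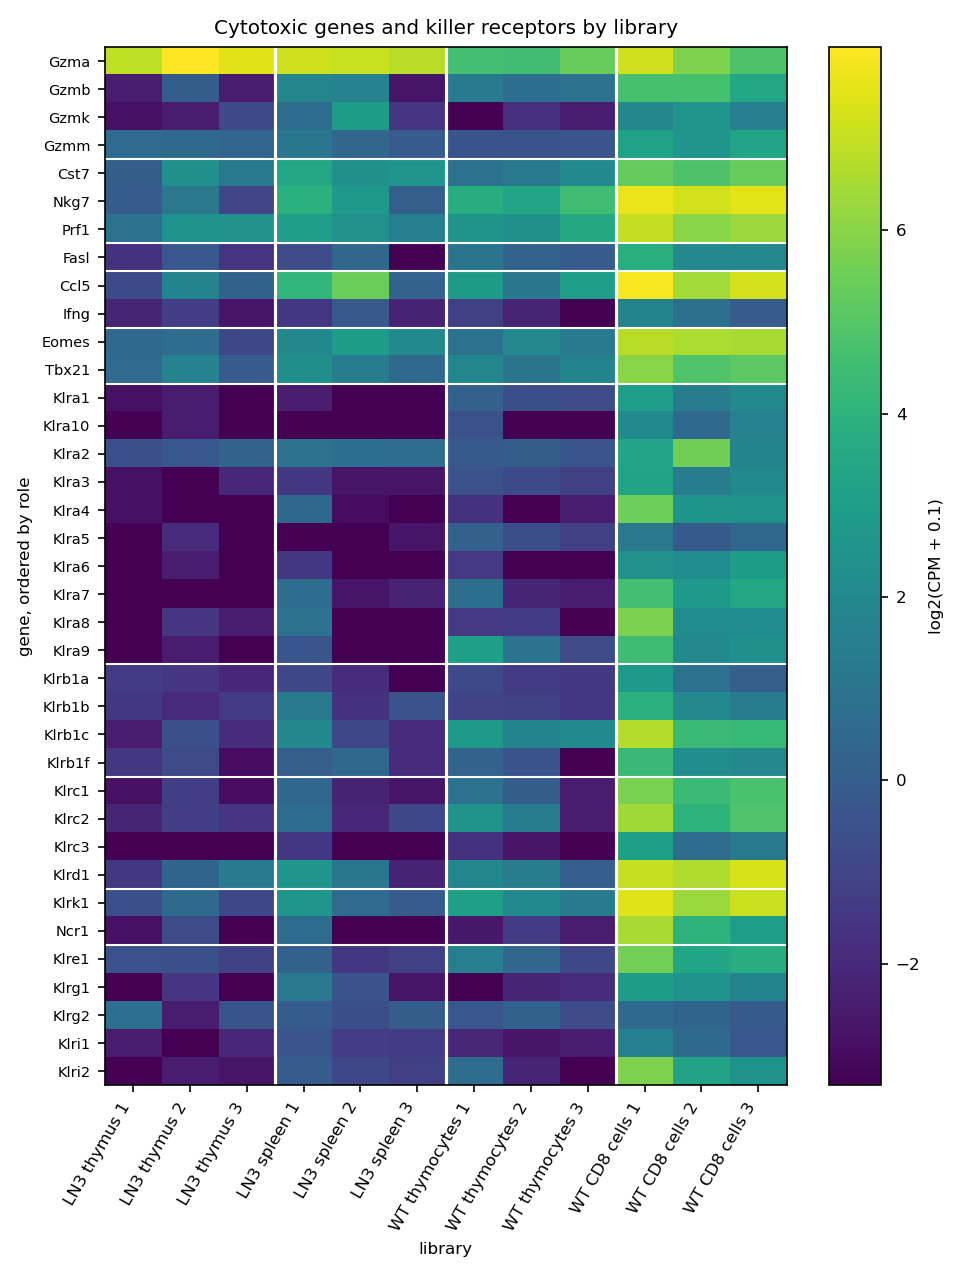
Level of each member with a mean of 1 CPM or more in a group, as log2(CPM + 0.1) by colour, in each of the 12 libraries, with rows grouped by role and columns by group. The WT CD8 columns are the highest for most rows, and Gzma is at 110 CPM or more in every LN3 library, where no other granzyme exceeds 7.44 CPM.

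Between the LN3 organs, 1 of 39 tested members was higher in the spleen (Eomes, 4.5-fold, log2 difference 2.24, SE 0.46, adjusted p = 0.0461) and none lower, beside 0.694% and 0.0287% of all genes. At an unadjusted p below 0.05, 14 members were higher and 0 lower, and DESeq2 called 6 higher and 0 lower. The shares of all genes at those settings were not counted. Eomes lost its call in 18 of 23 alternatives, with adjusted p up to 0.387. The median difference of the tested members was 1.65 (1.58 with members without a count in a group at their bound or left out), against −0.05 over all genes. The groups did not overlap for 7 members, each higher in LN3 spleen, where 6.22% of all genes were higher without overlap. The NK-cell and myeloid marker sums were also higher in LN3 spleen (27.2 to 97.9 and 261 to 1370 CPM) than in LN3 thymus (11.7 to 38.9 and 50.1 to 314 CPM), with overlap. The 5 erythroid markers summed to 1280 to 4420 against 5.97 to 103 CPM, without overlap, and 2 of them were called higher. The 7 dendritic markers summed to 204 to 1210 against 66.6 to 179 CPM, and the 7 B-cell markers to 282 to 2130 against 286 to 467. The part of these cells in the members' differences was not tested. Gzma had a negative difference of −0.54 that did not pass (adjusted p = 0.837), and its groups overlapped. Klra10, Klra5, Klra1, Klrb1a, Klrg2 and Klre1 were also negative, from −1.91 to −0.02, and not called.

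Between the control groups, 32 of 39 tested members were higher in WT CD8 cells than in WT thymocytes (82.1%) and none lower, beside 7.24% and 8.49% of all genes. The median difference was 3.93, against 0 over all genes, and 35 members did not overlap, where 17.5% of all genes were higher without overlap. The largest called differences among members of 10 CPM or more were those of Ncr1 (7.85, adjusted p = 0.00948), Klra4 (7.55, adjusted p = 0.0075) and Klra8 (6.65, adjusted p = 0.0236), followed by Klrd1 (5.72, adjusted p = 0.00238). Eomes (5.18, adjusted p = 5.09e-05), Ccl5 (4.77, adjusted p = 0.00913) and Klrk1 (4.68, adjusted p = 0.00115) went in the same direction. Gzma, at 1.36, did not pass (adjusted p = 0.0807). At an unadjusted p below 0.05, and by DESeq2 and limma, 0 members were lower. The count of 32 became 21 without WT CD8 library 1 or WT thymocyte library 2, 20 without WT thymocyte library 3, and 8 with WT CD8 library 3 as the only WT CD8 library. This comparison shares its WT CD8 libraries with the spleen comparison and its WT thymocyte libraries with the thymus comparison, so the counts are not independent of those.

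The difference between the 2 organs in the effect of genotype, tested as an interaction, was negative for 4 of 39 members (10.3%) and positive for none, beside 0.895% and 3.29% of all genes. Gzmm (−3.59, SE 0.62, adjusted p = 0.00708), Eomes (−2.94, SE 0.63, adjusted p = 0.0193), Prf1 (−3.19, SE 0.71, adjusted p = 0.024) and Tbx21 (−3.15, SE 0.78, adjusted p = 0.0412) passed. For Eomes, Prf1 and Tbx21 the LN3 minus WT difference was negative in both organs and further below 0 in the spleen, while for Gzmm it was 0.97 in the thymus and −2.62 in the spleen. For the other 35 tested members a fall in one organ and none in the other is not shown to be a difference between organs. No member was positive at an unadjusted p below 0.05 or by DESeq2 or limma, and each of those tools called 9 negative. The shares of all genes by those tools were not counted. The count of 4 became 1 without LN3 spleen 3, WT thymocytes 1 or WT CD8 library 1, 2 without LN3 thymus 2, LN3 spleen 2 or WT thymocytes 2, and 8 without LN3 spleen 1. The median interaction of the members was −2.33, against −0.08 over all genes. Of the 39 members, 19 passed the low-count filter only with WT CD8 libraries, which enter this comparison. The share called and the median are thus no independent evidence of direction. Gzmm, Eomes, Prf1 and Tbx21 passed the filter without those libraries.

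The genes around the members were read from 7 lists. Of all genes tested, 6.06% rose and 5.21% fell in the thymus, and 17.9% rose and 13% fell in the spleen. Beside those shares, 1 or 2 called genes in a list were not read as a result about that list. Of 12 genes of the granule machinery, 1 rose and 1 fell in the thymus (median −0.35), and 6 fell in the spleen (median −0.98). Serpinb6b, a protease inhibitor of the serpin family, rose in LN3 thymus from 8.89 to 30.6 CPM (1.78, SE 0.34, adjusted p = 0.00534). Ctsw, a cathepsin of killer cells, fell in the thymus from 37.7 to 8.74 CPM (−2.1, adjusted p = 0.0207) and in the spleen from 200 to 6.14 (−5.05, adjusted p = 9.76e-05). Srgn, the proteoglycan core on which granzymes are packed, fell in the spleen (−1.54, adjusted p = 0.00414). Of 12 receptor adaptors and signalling genes, 2 fell in the thymus, and in the spleen 1 rose and 1 fell (medians −0.28 and −0.37). Hcst, which encodes DAP10, the adaptor of NKG2D, fell in the spleen from 39.6 to 7.07 CPM (−2.49, adjusted p = 0.00561). Sh2d1a, the adaptor SAP, rose there from 23.8 to 72.2 (1.6, adjusted p = 0.000471).

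Of 7 costimulatory receptors of killer cells, 2 fell in the thymus and 5 in the spleen (medians −1.09 and −2.71). Crtam, which marks activated killer cells, fell in both organs (−2.07, adjusted p = 0.0342, and −4.67, adjusted p = 0.000162), and Cd226, an activating receptor also called DNAM-1, fell in the spleen from 86 to 4.73 CPM (−4.19, adjusted p = 0.000281). Of 12 regulators of effector genes, 2 fell in the thymus, and 1 rose and 6 fell in the spleen (medians −0.4 and −1.65). Zfp683, which encodes Hobit, fell in both organs (−3.21, adjusted p = 0.00343, and −3.72, adjusted p = 0.000599). Bach2, a repressor of effector differentiation, fell in both as well (−2, adjusted p = 0.0134, and −3.55, adjusted p = 0.000268).

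Of 11 genes of cytokine inputs, 2 rose and 3 fell in the thymus, and 2 rose and 7 fell in the spleen (medians −0.67 and −1.37). Il2ra, the high-affinity chain of the interleukin 2 receptor, rose in both organs, from 50.1 to 281 CPM in the thymus (2.49, adjusted p = 0.0434) and from 9.55 to 145 in the spleen (3.93, adjusted p = 0.00264). Il18r1, the interleukin 18 receptor, fell in the spleen from 131 to 3.97 CPM (−5.06, adjusted p = 2.87e-05). Of 7 tested genes for other effector ligands and cytokines, 1 fell in the thymus (Lta, −1.59, adjusted p = 0.0404) and 4 in the spleen (medians −1.09 and −1.72). Of 10 tested ligands of killer receptors, 3 fell in the thymus and 7 in the spleen (medians −1.14 and −1.9). H60b, a ligand of NKG2D, fell from 2.07 to 0.0562 CPM in the thymus (−4.87, adjusted p = 0.00506) and from 13.1 to 0.203 in the spleen (−6.04, adjusted p = 0.000438). Clec2d, a ligand of some NKR-P1 receptors, fell from 19.3 to 3.62 CPM in the thymus (−2.41, adjusted p = 0.00183). The medians over all genes were −0.04 in the thymus and −0.11 in the spleen.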

How the data were processed

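Polyadenylated RNA of 12 samples was sequenced as read pairs from directional libraries, per the labels' protocols. The authors deposited estimated counts per gene. The submitters' processing notes name kallisto 0.46.1, FastQC, DESeq2 and build GRCm38; neither the annotation release nor the use of strand is given in the sources used here. All 652212 values (100%) were whole, so rounding these deposited estimated counts changed none. The authors also deposited variance-stabilized values on a log2 scale, used in 1 alternative only.

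Genes were kept by filterByExpr and fitted with edgeR 4.0.16 (R 4.3.3; TMM scaling, 4 group means over 12 libraries, 8 residual degrees of freedom, robust quasi-likelihood test), with Benjamini-Hochberg adjustment over 20897 genes and a threshold of 0.05. The common biological coefficient of variation was 0.4411. CPM are counts per TMM-scaled library total. Totals of 12694571 to 42483898 put the floor of 3 counts at 0.0657 to 0.262 CPM. Folds are ratios of mean CPM; with 1 to 3 counts in a group they are ratios of summed counts with a 95% counting interval. The fit was also run on data simulated with the same spread for every gene and with changes only in genes of higher counts. That run says nothing about members with few counts or a wider spread of their own.

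Alternatives were DESeq2 1.42.0, limma 3.58.1 on the log2 values, other scalings, no filter, replicate blocks, 2-group fits, single libraries left out and copies summed. Those added after seeing the data left out the 4 dominant rows, WT CD8 libraries 1 and 2, or the 3 libraries of steepest GC slope, or added pseudogene rows to the Klra sum. Members with a mean of 10 CPM or more in a group are given by library; of each neighbouring list, genes named are among the 2 called ones of largest difference per organ, besides Cd8a, Cd8b1 and Cd3e. The members and lists were chosen with earlier results of these data known. The main fit did not pair samples by replicate number. Gene positions, transcripts and shared 31-base words (the default word length of kallisto; the setting used is unknown) are from GENCODE vM21 on GRCm38, and promoters from RefSeq on GRCm38.p6.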

Additional observations from a re-analysis of the deposited data

Results flagged for a closer look

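For 4 members the difference between LN3 and WT cells was itself different in the 2 organs, by the test of the interaction in edgeR's quasi-likelihood fit. Each of the 3 LN3 spleen libraries was below each of the 3 WT CD8 libraries for these genes. Gzmm (granzyme M) had an interaction of −3.59 (adjusted p = 0.00708), with 1.43, 1.41 and 1.18 CPM in LN3 thymus against 0.676, 0.675 and 0.688 in WT thymocytes, and 2.09, 1.25 and 0.854 in LN3 spleen against 9.51, 5.92 and 10.1 in WT CD8 cells. It was called in all 21 alternatives, with adjusted p up to 0.0446. Eomes had an interaction of −2.94 (adjusted p = 0.0193) and lost the call in 6 of 21 alternatives, with adjusted p up to 0.156. Prf1 (perforin) had an interaction of −3.19 (adjusted p = 0.024) and lost the call in 9 of 21, with adjusted p up to 0.16. Tbx21 (T-bet) had an interaction of −3.15 (adjusted p = 0.0412) and lost the call in 12 of 21, with adjusted p up to 0.241. The control cells of the spleen were enriched and the other groups were not, so enrichment and organ cannot be told apart in this contrast.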

How the results depend on the processing

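No result turned its direction while called under any alternative. Of the alternative values, 4182 kept their side of the threshold, 62 passed it and 236 no longer did. These numbers cover the single members, and the family sums outside the thymus and spleen comparisons. In the thymus, members called higher numbered 1 and without the 3 libraries of steepest GC slope 0, and 1 whichever single library was left out. Members called lower there (6) were 12 with DESeq2, 3 with no filter on low counts, 2 in the 2-group fit, 2 in the 2-group fit with a replicate block, 2 with copies summed and 1 to 8 with single libraries left out. In the spleen, members called higher (0) were 1 without WT CD8 libraries 1 and 2 and 0 to 1 with single libraries left out, and members called lower (32) were 15 without those libraries, 17 with copies summed and 22 to 32 with single libraries left out. Between the LN3 organs the count of 1 was 6 with DESeq2, and 0 with library totals, upper-quartile factors, the replicate block, both 2-group fits, and the omission of WT CD8 libraries 1 and 2 or of the 3 libraries of steepest GC slope (0 to 1 with single libraries left out). Between the control groups the count of 32 was 8 without WT CD8 libraries 1 and 2, 19 with copies summed and 20 to 33 with single libraries left out. The interaction count of 4 was 9 with DESeq2, 9 with limma, 1 without WT CD8 libraries 1 and 2, 2 without the 3 libraries of steepest GC slope and 1 to 8 with single libraries left out. The thymus sums passed the threshold for Klra with library totals (−2.76) and upper-quartile factors (−2.66), for Klrb1 with those (−2.9 and −2.84) and with the replicate block (−2.53), and for Klrc with library totals (−3.91). With single libraries left out they ran from −2.85 to −1.5, from −3 to −2.29 and from −4.12 to −2.54. Fewer genes, samples or rows entered some of these fits; otherwise the cause was not tested.

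The labels state no pairing by replicate number. Of 18 correlations between same-numbered samples of different groups, 4 were above 0.1 (−0.5 to 0.36). These correlations cannot show whether same-numbered samples share an animal. Xist, an RNA made by female cells, was at 3.89 CPM in LN3 thymus 2 and 4025 in LN3 spleen 2. It was at 1.03 CPM in WT thymocytes 3 and 1615 in WT CD8 library 3. By this marker of sex, these same-numbered samples came from different animals. Under the replicate block, which joins them all the same, the count between the LN3 organs was 0. Prf1 and Tbx21 lost their interaction calls there (adjusted p = 0.0623 and 0.0564). Library totals moved the median of all genes from −0.04 to −0.24 in the thymus and from −0.11 to −0.51 in the spleen, and upper-quartile factors moved them to −0.21 and −0.43. Genes called higher and lower then numbered 1021 and 1649 or 1095 and 1563 in the thymus, against 1266 and 1088. In the spleen they numbered 2524 and 3783 or 2796 and 3913, against 3740 and 2713. The fit without WT CD8 libraries 1 and 2 has 1 sample in that arm, assumed to vary like the other groups. Members near the floor of up to 0.262 CPM rest on few counts.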
